A study of Mus musculus with 8 samples.

Results

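A set of 9 genes that mark the exit from naive pluripotency and the first steps of gastrulation was followed in mouse embryonic stem cells (ESCs), extended pluripotent stem cells (EPSCs), neural stem cells (NSCs), and hybrids made by fusing EPSCs with NSCs. They were Fgf5, Otx2, Pou3f1, and Zic2 of the formative and primed epiblast, T, Eomes, Mixl1, and Gsc of the primitive streak, and Foxd3, which acts at the transition between naive and primed cells. The genes were chosen by name, and all 9 were found among the 24354 gene rows of the expression table. Each of the 4 cell types was sequenced in 2 libraries, 8 in all. The ESCs were E14 cells labeled wild type, cultured in DMEM with 15% fetal bovine serum and LIF. EPSCs, also labeled wild type, were a C57BL/6 line in N2B27-LCDM medium, which holds human LIF, CHIR99021 (an inhibitor of the kinase GSK3 that raises Wnt signaling), dimethindene maleate, and minocycline hydrochloride. NSCs carried the transgenes OG2 (GFP under the distal enhancer of Oct4) and ROSA26 (ubiquitous lacZ) and were grown with EGF and FGF2 on gelatin. Hybrid cells came from polyethylene glycol fusion of EPSCs with these NSCs, were labeled tetraploid, were picked by Oct4-GFP, and were kept in the EPSC medium. ESCs, EPSCs, and hybrid cells grew on inactivated C3H embryonic fibroblasts, so these libraries can hold feeder RNA, whereas NSCs had no feeder layer. The study asked whether fusion with EPSCs passes the EPSC state to the NSC genome. No group held more than 1 line, so replicates and p-values describe the spread between libraries of that line, which may be technical. The sample descriptions carry p15 for EPSCs and p10 for hybrid cells without spelling out the letter, and this difference cannot be told apart from that between the groups. No age or treatment other than the media is given for any group.

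In the embryo, naive epiblast cells pass through a formative and then a primed state before they enter the germ layers. OTX2, a homeobox factor, and POU3F1 (also called OCT6), a POU factor, open enhancers of the formative epiblast, while FGF5 is a secreted growth factor whose transcript marks the primed epiblast. Wnt and Nodal signals then switch on the T-box factors T (Brachyury) and EOMES and the homeobox factors MIXL1 and GSC in the primitive streak, from which mesoderm and endoderm arise. Several of these genes have a further life in the nervous system, since OTX2, ZIC2, and POU3 factors also pattern the brain or act in neural progenitors.

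Levels are given as FPKM (fragments per kilobase of transcript and per 1000000 mapped fragments), a scale that corrects for transcript length. Depth was derived from the spacing of low FPKM values, which gave 21.9 to 32.6 in units of 1000000 fragments per library. The labels of the groups were checked against marker genes. Pou5f1, the core pluripotency factor, averaged 1076.8 ± 41.3 FPKM for ESCs, 869.5 ± 112 for EPSCs, and 875.1 ± 189 for hybrid cells (SD, n = 2), and was listed at 0 in both NSC libraries. Nes, an intermediate filament of neural progenitors, had a mean of 117 ± 3.97 FPKM in NSCs and between 2.40 and 4.46 in the other groups. Summed over marker lists, the pluripotent libraries had 1379.3 to 1960.4 FPKM of 6 core and 1575.4 to 1789.4 of 14 naive pluripotency genes, and NSCs had 116.3 to 119.7 and 4.13 to 4.52. The 9 neural stem cell markers summed to between 3972.2 and 4022.1 FPKM in NSCs and to between 10.8 and 19.6 elsewhere. Trophectoderm markers (8 genes) reached 44.7 to 66.4 FPKM in pluripotent libraries and 0.145 to 0.189 in NSCs. Most of that sum came from Tfap2c and Tead4. Krt7, a keratin gene of the list, averaged 5.81 FPKM for EPSCs, 1.69 for hybrid cells, and 0.493 for ESCs. The homeobox gene Esx1 averaged 1.16 for EPSCs, 0.828 for ESCs, and 0.321 for hybrid cells. Hand1 went the other way, with an ESC mean of 0.851 above those of EPSCs (0.181) and hybrid cells (0.126). Elf5 had the same order on a lower level (0.0645, 0.0458, and 0.0114), and neither gene was tested. Tfap2c was nearly level between EPSCs (37.71) and ESCs (37.05). Primitive endoderm markers (6 genes) summed to 5.92 to 8.42 over all libraries. Errors below are SD over 2 libraries unless an SE is named.

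The sequences before the start sites are shown for 4 genes, T and Eomes as the T-box pair of the streak, Foxd3 as the gene that differed between hybrid cells and EPSCs, and Otx2 as a gene highest in ESCs. Each run is the 250 bases upstream of a RefSeq start in GRCm38.p6, written 5′ to 3′ on the strand of the gene, with capitals at matches to 4 motifs, and 6 of the 9 genes (not Pou3f1, Zic2, and Mixl1) were in the promoter table. The motifs were CTTTGA (TCF/LEF), TAATCC (bicoid-type homeobox, as bound by OTX2 and GSC), TCACAC (T-box), and ATTTGCAT (octamer), searched on both strands.
T (chr17:8434173-8434422, plus strand): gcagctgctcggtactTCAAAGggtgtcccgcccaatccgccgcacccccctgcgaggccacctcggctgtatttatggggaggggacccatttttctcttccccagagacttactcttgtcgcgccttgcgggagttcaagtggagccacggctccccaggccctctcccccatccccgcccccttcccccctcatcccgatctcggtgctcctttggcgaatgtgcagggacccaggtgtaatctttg
Eomes (chr9:118477939-118478188, plus strand): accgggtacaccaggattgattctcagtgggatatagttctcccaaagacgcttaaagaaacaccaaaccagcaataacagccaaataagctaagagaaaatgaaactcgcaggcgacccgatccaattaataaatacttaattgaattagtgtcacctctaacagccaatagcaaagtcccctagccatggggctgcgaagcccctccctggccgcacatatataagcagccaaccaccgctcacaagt
Foxd3 (chr4:99656049-99656298, plus strand): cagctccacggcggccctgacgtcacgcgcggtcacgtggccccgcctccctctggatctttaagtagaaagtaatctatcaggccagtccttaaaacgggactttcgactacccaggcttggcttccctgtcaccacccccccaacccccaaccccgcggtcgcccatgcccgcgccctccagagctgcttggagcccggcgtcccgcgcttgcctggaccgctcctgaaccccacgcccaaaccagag
Otx2, the outermost of 4 RefSeq starts (chr14:48667645-48667894, minus strand): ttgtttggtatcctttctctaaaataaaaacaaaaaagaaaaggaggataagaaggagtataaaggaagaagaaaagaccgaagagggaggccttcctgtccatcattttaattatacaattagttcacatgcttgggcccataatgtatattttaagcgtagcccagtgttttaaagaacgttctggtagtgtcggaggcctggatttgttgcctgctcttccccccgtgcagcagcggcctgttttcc

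The T window held 1 TCF/LEF match, printed as TCAAAG because it lies on the opposite strand, 234 bases before the start. Of 32851 windows of the same length upstream of RefSeq starts, 13.8% held this motif on either strand. The windows printed for Eomes, Foxd3, and Otx2 held none of the 4 motifs, and neither did that of Gsc. Among the windows not printed, that of Fgf5 held 1 T-box match 82 bases before the start (12.3% of all windows held that motif), and that of an inner start of Otx2 held 1 bicoid-type match (6.25% of windows). Octamer matches were found in 1.6% of all windows and in none of these genes' windows. A match describes letters in the window and not a bound site.

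**Figure D1:**
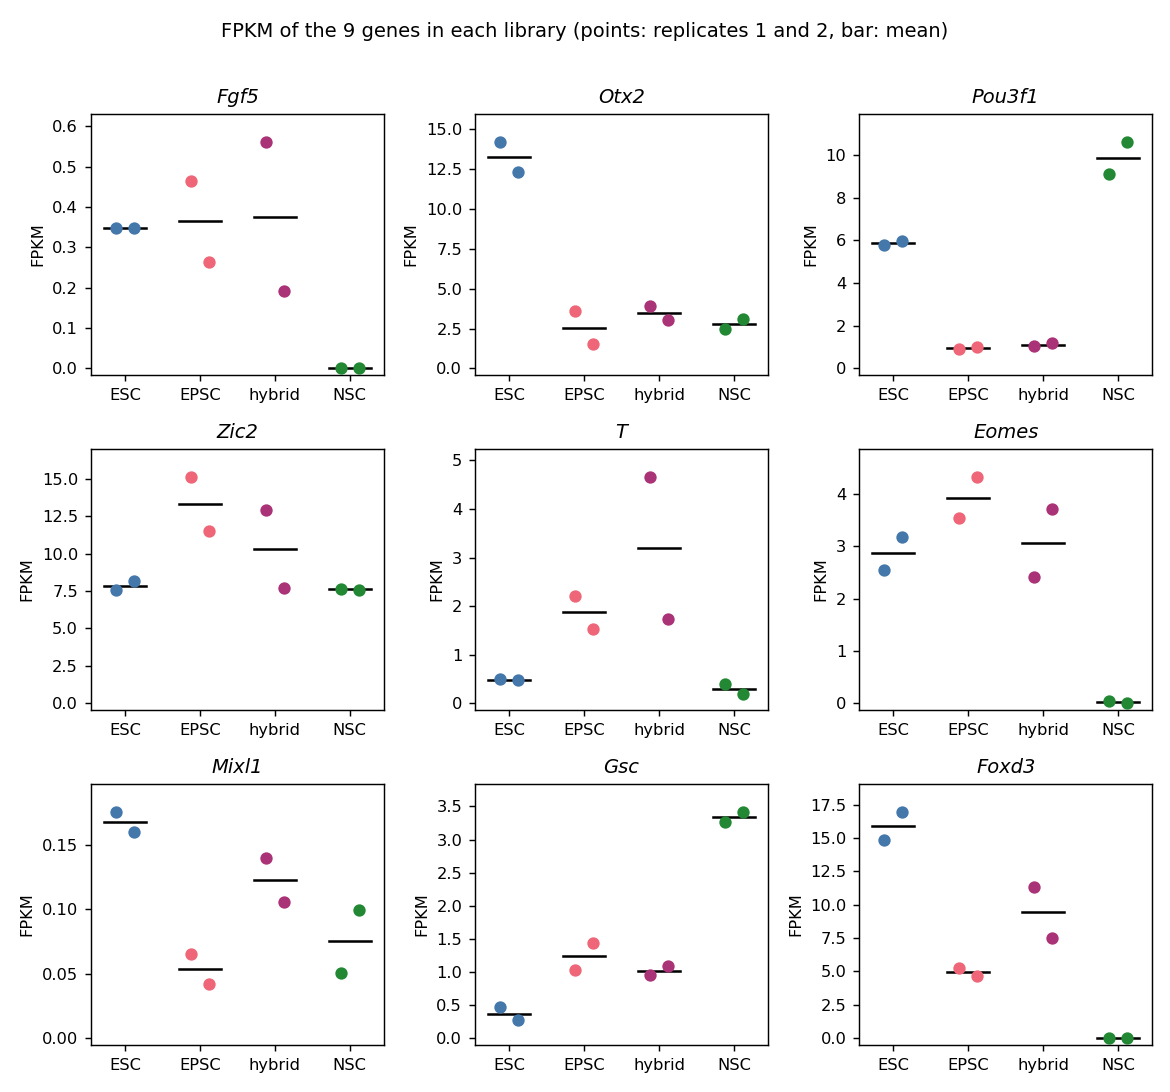
FPKM of each of the 9 genes (vertical axis, linear, a separate scale for each gene) in the 2 libraries of ESCs, EPSCs, hybrid cells, and NSCs (horizontal axis), with points for libraries and bars for group means. Otx2 and Foxd3 are highest in ESCs (means of 13.3 and 15.9 FPKM), Pou3f1 and Gsc in NSCs (9.86 and 3.34), and T in hybrid cells, where the libraries lie at 4.66 and 1.74.

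Otx2, which lies on chromosome 14 (chr14:48656781-48667644, minus strand), was highest in ESCs. Its FPKM was 14.2 and 12.3 in ESCs, 3.58 and 1.52 in EPSCs, 3.94 and 3.04 in hybrid cells, and 2.46 and 3.07 in NSCs. Both ESC libraries lay above every other library, and the libraries of EPSCs, hybrid cells, and NSCs overlapped. The ESC mean of 13.3 ± 1.32 was 5.20-fold the EPSC mean of 2.55 ± 1.46 and 3.80-fold the hybrid mean of 3.49 ± 0.639. Without EPSC replicate 1, an alternative chosen after seeing the data, the ratio to EPSCs was 8.74. On the scale of log2(FPKM + 1), Otx2 fell by 2.07 in EPSCs relative to ESCs (SE 0.26, adjusted p = 0.000441 by limma, and by 2.50 and 1.63 without EPSC replicates 1 and 2) and by 1.67 in hybrid cells (adjusted p = 0.000988). It was 1.92 higher in ESCs than in NSCs (adjusted p = 0.000223). Hybrid cells and EPSCs differed by 0.39, with a 95% interval from -0.22 to 1.01 (adjusted p = 0.259). That value rested on the EPSC libraries, since it was 0.83 without EPSC replicate 1 (adjusted p = 0.0131) and -0.04 without EPSC replicate 2 (adjusted p = 0.885), and adjusted p ranged from 0.0131 to 0.885 over 16 alternatives. A gene on the opposite strand at this locus, Otx2os1, was listed at 0 in all groups.

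Pou3f1, a single-exon gene on chromosome 4 (chr4:124657646-124660655, plus strand), was lowest in the cells kept in EPSC medium. Its FPKM was 5.80 and 5.99 in ESCs, 0.885 and 1.01 in EPSCs, 1.05 and 1.17 in hybrid cells, and 9.10 and 10.6 in NSCs. The 4 groups did not overlap, and the order was NSCs, ESCs, hybrid cells, and EPSCs. The ESC mean was 6.24-fold the EPSC mean and 5.30-fold the hybrid mean, and the NSC mean was 8.86-fold the hybrid mean. Against ESCs, Pou3f1 fell by 1.83 in EPSCs (SE 0.09, adjusted p = 9.4e-06) and by 1.71 in hybrid cells (adjusted p = 8.7e-06). Against NSCs, it fell by 2.36 in hybrid cells (adjusted p = 2.0e-07), 2.48 in EPSCs (adjusted p = 1.5e-07), and 0.65 in ESCs (adjusted p = 0.00032). Although hybrid cells lay above EPSCs in every library, the difference of 0.12 (95% interval -0.10 to 0.34) did not pass the test (adjusted p = 0.342). All these calls were kept in every alternative computed.

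Zic2, a zinc finger factor on chromosome 14 (chr14:122475384-122480328, plus strand), was expressed in all groups and, of the tested genes, varied least between them. Its FPKM was 7.55 and 8.13 in ESCs, 15.1 and 11.5 in EPSCs, 12.9 and 7.67 in hybrid cells, and 7.65 and 7.58 in NSCs. EPSC libraries lay above those of ESCs and NSCs, while the hybrid libraries were spread over the range from NSCs to EPSCs. Zic2 was 1.70-fold higher in EPSCs than in ESCs, a difference of 0.68 (SE 0.21, adjusted p = 0.026), and 1.75-fold higher than in NSCs, a difference of 0.72 (adjusted p = 0.0138). Neither call was firm. The call against ESCs was lost in 6 of 16 alternatives (adjusted p from 0.00274 to 0.136, the highest without EPSC replicate 1), and values without ESC replicate 1 and ESC replicate 2 were 0.64 (adjusted p = 0.12) and 0.73 (adjusted p = 0.082). The call against NSCs was lost when FPKM were scaled to a common sum (0.17, adjusted p = 0.464) and without EPSC replicate 1 or either NSC library. The hybrid difference from NSCs of 0.35 did not pass the test, but it was 0.66 after quantile normalization (adjusted p = 0.0195) and 0.69 without hybrid replicate 2 (adjusted p = 0.00391). Hybrid cells differed from EPSCs by -0.37 (95% interval -0.87 to 0.13, adjusted p = 0.198), and by -0.71 without hybrid replicate 1 (adjusted p = 0.0121, over alternatives from 0.0121 to 0.892). Against ESCs, the hybrid difference of 0.31 (adjusted p = 0.231) became 0.66 without hybrid replicate 2 (adjusted p = 0.00805) and -0.03 without hybrid replicate 1 (adjusted p = 0.892).

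Fgf5, on chromosome 5 (chr5:98254184-98277033, plus strand), was low in pluripotent cells. Its FPKM was 0.348 in both ESC libraries, 0.465 and 0.265 in EPSCs, and 0.561 and 0.191 in hybrid cells, and it was listed at 0 in both NSC libraries. The pluripotent groups overlapped fully, and values correspond to about 10 to 31 fragments per library. Since no group mean reached 1 FPKM, Fgf5 was not among the 13239 genes tested. Without that filter, it was called against NSCs in hybrid cells (0.45, adjusted p = 0.0223 by limma), EPSCs (0.44, adjusted p = 0.0229), and ESCs (0.43, adjusted p = 0.0262), and in no other comparison. At the depth of the NSC libraries, 3 fragments of this gene equal 0.0452 to 0.0456 FPKM, a limit that covers counting error only.

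Foxd3, a single-exon forkhead gene on chromosome 4 (chr4:99656299-99658671, plus strand), was the only gene of the 7 tested that was called between hybrid cells and EPSCs. Its FPKM was 14.9 and 17.0 in ESCs, 5.25 and 4.67 in EPSCs, and 11.4 and 7.53 in hybrid cells, and it was listed at 0 in both NSC libraries. No 2 groups overlapped, and hybrid cells stood between EPSCs and ESCs. The hybrid mean of 9.45 ± 2.703 was 1.90-fold the EPSC mean of 4.96 ± 0.413, a rise of 0.79 on the log2(FPKM + 1) scale (SE 0.17, 95% interval 0.39 to 1.18, adjusted p = 0.00847). This call held in 15 of 16 alternatives and was lost when only hybrid cells and EPSCs were fitted (0.79, adjusted p = 0.0662, over alternatives from 0.00117 to 0.0662). Its size varied with the hybrid library, at 0.52 without hybrid replicate 1 (adjusted p = 0.0134) and 1.05 without hybrid replicate 2 (adjusted p = 0.00117). Against ESCs, Foxd3 fell by 1.50 in EPSCs (adjusted p = 0.000246) and by 0.72 in hybrid cells (adjusted p = 0.00696), and the latter was lost without ESC replicate 2 (-0.63, adjusted p = 0.0536, over alternatives from 0.000544 to 0.0536). Without hybrid replicate 2, the hybrid difference from ESCs was -0.45 (adjusted p = 0.0122). All 3 pluripotent groups passed the test against NSCs (adjusted p = 6.2e-07 for hybrid cells, 2.7e-06 for EPSCs, and 2.3e-07 for ESCs), with no fold given against a group listed at 0.

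T, the Brachyury gene on chromosome 17 (chr17:8434423-8442496, plus strand), was higher in EPSCs and hybrid cells, the groups kept with CHIR99021, than in ESCs, although medium and line cannot be told apart in this design. Its FPKM was 0.496 and 0.469 in ESCs, 2.21 and 1.54 in EPSCs, 4.66 and 1.74 in hybrid cells, and 0.398 and 0.188 in NSCs. All 4 libraries in EPSC medium lay above all ESC and NSC libraries, and 1 hybrid library stood far above the other. The EPSC mean of 1.87 ± 0.479 was 3.88-fold the ESC mean of 0.482 ± 0.0193, and the hybrid mean of 3.20 ± 2.06 was 6.63-fold that mean, or 3.61-fold without hybrid replicate 1. T rose in EPSCs against ESCs by 0.94 (SE 0.30, adjusted p = 0.0286) and in hybrid cells against ESCs by 1.41 (adjusted p = 0.00461). In 6 of 16 alternatives the EPSC call was lost (adjusted p from 0.001 to 0.131), namely without a filter on low values (0.94, adjusted p = 0.0616) and without ESC replicate 1 (0.96, adjusted p = 0.104), ESC replicate 2 (0.93, adjusted p = 0.109), EPSC replicate 1 (0.77, adjusted p = 0.131), NSC replicate 1 (adjusted p = 0.0598), or NSC replicate 2 (adjusted p = 0.0591). The hybrid call held in all 16 (adjusted p from 0.000138 to 0.0301), although the difference was 0.89 without hybrid replicate 1 (adjusted p = 0.00376) and 1.93 without hybrid replicate 2 (adjusted p = 0.000138). Against NSCs, T was higher by 1.61 in hybrid cells (adjusted p = 0.00136) and by 1.15 in EPSCs (adjusted p = 0.008), the latter lost without NSC replicate 2 (1.03, adjusted p = 0.062, over alternatives from 0.000157 to 0.062). Hybrid cells and EPSCs differed by 0.47 (95% interval -0.24 to 1.17, adjusted p = 0.249), which became 0.99 without hybrid replicate 2 (adjusted p = 0.00492) and -0.06 without hybrid replicate 1 (adjusted p = 0.807).

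Eomes, the second T-box gene, on chromosome 9 (chr9:118478186-118486132, plus strand), had means between 2.86 and 3.93 FPKM in the 3 pluripotent groups and was close to 0 in NSCs. Its FPKM was 2.55 and 3.18 in ESCs, 3.54 and 4.32 in EPSCs, 2.41 and 3.71 in hybrid cells, and 0.0405 and 0.0100 in NSCs, where about 4 and 1 fragments were behind the values. Hybrid libraries overlapped with both ESCs and EPSCs, and NSCs lay apart. Eomes passed the test against NSCs in hybrid cells (1.97, SE 0.17, adjusted p = 1.2e-05), EPSCs (2.26, adjusted p = 5.3e-06), and ESCs (1.91, adjusted p = 1.5e-05). EPSCs and ESCs differed by 0.35 (95% interval -0.04 to 0.74, adjusted p = 0.102), a difference that passed the test in 3 of 16 alternatives (adjusted p from 0.0314 to 0.392), including the fits without hybrid replicate 1 (adjusted p = 0.0326) or hybrid replicate 2 (adjusted p = 0.0314). Hybrid cells differed from EPSCs by -0.29 (95% interval -0.68 to 0.09, adjusted p = 0.187), and by -0.53 without hybrid replicate 2 (adjusted p = 0.0243, over alternatives from 0.0243 to 0.761). Relative to ESCs, hybrid cells differed by 0.06 (95% interval -0.33 to 0.44, adjusted p = 0.782).

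Gsc, a homeobox gene of the organizer on chromosome 12 (chr12:104471209-104473236, minus strand), was highest in NSCs and lowest in ESCs. Its FPKM was 0.464 and 0.269 in ESCs, 1.03 and 1.44 in EPSCs, 0.952 and 1.09 in hybrid cells, and 3.26 and 3.42 in NSCs. Groups were separate except for EPSCs and hybrid cells, which overlapped. NSCs exceeded hybrid cells 3.27-fold, EPSCs 2.698-fold, and ESCs 9.11-fold. Fragment numbers were low, at about 16 and 9 in the ESC libraries and 24 to 35 in those of EPSCs and hybrid cells. The ratio to ESCs was 12.4 without ESC replicate 1 and 7.20 without ESC replicate 2. Gsc rose in EPSCs against ESCs by 0.71 (SE 0.11, adjusted p = 0.00129) and in hybrid cells by 0.57 (adjusted p = 0.00324), and it fell by 1.10 in hybrid cells (adjusted p = 3.9e-05), 0.96 in EPSCs (adjusted p = 9.0e-05), and 1.67 in ESCs (adjusted p = 3.6e-06) relative to NSCs. Each of these calls held in every alternative computed. Hybrid cells and EPSCs differed by -0.14 (95% interval -0.41 to 0.12, adjusted p = 0.344).

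Mixl1, a homeobox gene of the streak on chromosome 1 (chr1:180693043-180697034, minus strand), stayed below 0.2 FPKM in every library. Its FPKM was 0.176 and 0.160 in ESCs, 0.0651 and 0.0417 in EPSCs, 0.140 and 0.105 in hybrid cells, and 0.0503 and 0.0998 in NSCs. These values correspond to about 2 to 12 fragments, and 3 fragments equal 0.0440 to 0.0653 FPKM of this gene across the libraries. ESC libraries were the highest, but Mixl1 was not among the genes tested, and no ratio is given at these fragment numbers. Without the filter on low values, the test called Mixl1 lower in EPSCs than in ESCs (-0.15, adjusted p = 0.00976) and higher in ESCs than in NSCs (0.12, adjusted p = 0.0135).

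**Figure D2:**
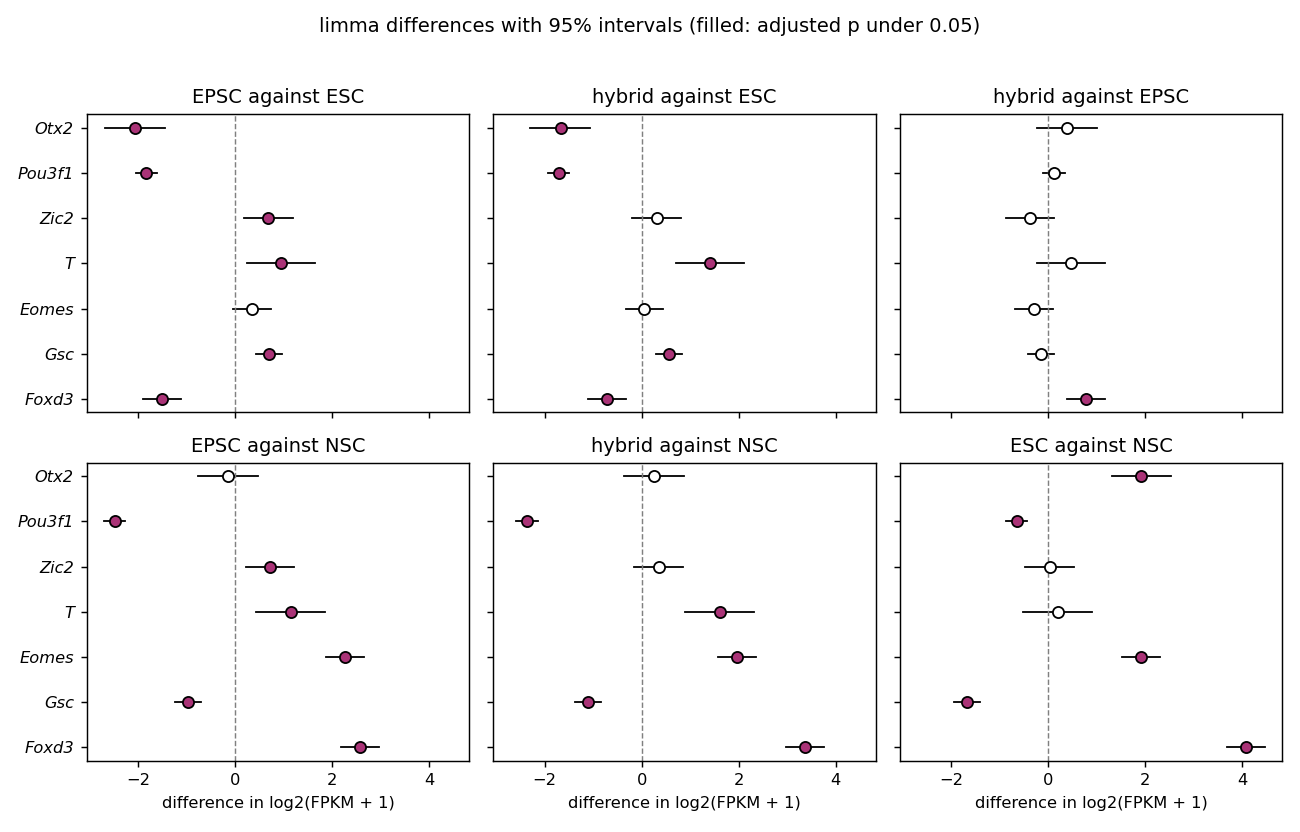
Difference in log2(FPKM + 1) between groups (horizontal axis) for the 7 tested genes (vertical axis), with points for limma estimates, lines for 95% intervals, and filled points where adjusted p was under 0.05. In the panel of hybrid cells against EPSCs only Foxd3 (0.79) is filled, whereas EPSCs against ESCs has 6 filled points, from -2.07 for Otx2 to 0.94 for T. The Foxd3 estimates against NSCs depend on the constant of 1, since NSCs are listed at 0.

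Counted together, 5 of the 9 genes reached a mean of 1 FPKM in ESCs, 6 in EPSCs, 7 in hybrid cells, and 4 in NSCs, beside 45.9%, 45.9%, 46.8%, and 46.5% of all genes, and 7 were tested. For EPSCs against ESCs, the test called 6 of 7, 3 higher and 3 lower, and 61.0% of all tested genes. Hybrid cells against ESCs gave 5 of 7 (2 higher and 3 lower) and 65.5% of all tested genes. For hybrid cells against EPSCs, the count was 1 of 7, against a background of 44.4%. Against NSCs, 5 of 7 were called for hybrid cells (background 86.5%), 6 for EPSCs (background 86.2%), and 5 for ESCs (background 84.7%), so most genes of any kind differed there. The median difference of the 7 genes was 0.12 for hybrid cells against EPSCs, 0.35 for EPSCs against ESCs, and 0.06 for hybrid cells against ESCs, beside 0.00, 0.04, and 0.04 for all genes tested. These comparisons share groups, so their counts are not independent.

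A rule of size after the methods of the study was applied here as a ratio of group means over 3 with the higher mean over 3 FPKM. Otx2, Pou3f1, and Foxd3 were past the limits between EPSCs and ESCs, where 2.57% of all 24354 genes were. Otx2, Pou3f1, and T were past them between hybrid cells and ESCs (3.63% of all genes). None of the 9 was past them between hybrid cells and EPSCs (0.866% of all genes), where limma called 1. For hybrid cells against NSCs, the genes were Pou3f1, T, Eomes, Gsc, and Foxd3 (15.8% of all genes). Pou3f1, Eomes, and Foxd3 were past the limits for EPSCs against NSCs (15.6%), and Otx2, Gsc, and Foxd3 for ESCs against NSCs (15.0%). T dropped out for hybrid cells against NSCs and against ESCs without hybrid replicate 1, Eomes dropped out against NSCs without hybrid replicate 2, and Foxd3 dropped out between EPSCs and ESCs without ESC replicate 2. Gsc came in for EPSCs against NSCs without EPSC replicate 2, and Eomes for ESCs against NSCs without ESC replicate 1. Both also came in with thresholds of 2 in place of 3 and after scaling FPKM to a common sum, and these settings changed no other entry. When the lowest library of the higher group was set against the highest of the lower group, Gsc dropped out for hybrid cells against NSCs and Foxd3 for EPSCs against ESCs.

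Set against the mean of the parental groups, hybrid cells fell on both sides. The hybrid mean of Foxd3 was 3.81 times the mean of EPSCs and NSCs, that of T 2.95 times, that of Eomes 1.55 times, and that of Otx2 1.31 times. The ratio of T was 1.61 without hybrid replicate 1. Zic2 stood at 0.984 of the parental mean, between 0.733 without hybrid replicate 1 and 1.23 without hybrid replicate 2, settings chosen after seeing the data. Gsc and Pou3f1, both called higher in NSCs than in EPSCs, were below it at 0.446 and 0.206. Where NSCs were at or near 0, as for Foxd3 and Eomes, a hybrid level equal to that of EPSCs also gives a ratio above 1. The side thus depends in part on which parent is higher. Relative to EPSCs alone, hybrid means were 1.90 for Foxd3, 1.71 for T (0.930 without hybrid replicate 1), and 1.37 for Otx2 (0.973 without EPSC replicate 2). They were 1.18 for Pou3f1, 0.825 for Gsc, 0.779 for Eomes, and 0.773 for Zic2. These ratios use linear FPKM and carry no test, and in bulk RNA a change in the share of cells that express a gene cannot be told apart from a change per cell.

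The other genes of these stages were described from lists. Of 15 further formative and primed genes, 14 were tested. Between EPSCs and ESCs 5 rose, 3 fell, and 6 did not pass, with a median of 0.12 and a background of 61.0% called. The 3 that fell include Fgf15, which reached a mean of 1 FPKM only in ESCs, so the filter itself set it apart there. Dnmt3b, a de novo DNA methyltransferase, rose by 0.75 (75.6 ± 17.1 against 43.9 ± 0.324 FPKM, adjusted p = 0.00556), and Etv4, an ETS factor downstream of FGF signaling, rose by 0.81 (adjusted p = 0.000371). Utf1, a chromatin factor of pluripotent cells, fell by 0.60 (adjusted p = 0.000147). Fgf15, a growth factor gene, had 4.41 ± 0.306 FPKM in ESCs and 0.238 ± 0.144 in EPSCs, and no test is given for it because of that filter. Between hybrid cells and EPSCs, 4 of the 14 were called (background 44.4%), 2 higher and 2 lower, and 2 in all without either NSC library, with the largest change in Dnmt3a, which fell by 1.00 (adjusted p = 0.00389).

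Of 18 further streak and mesendoderm genes, 13 had no group mean of 1 FPKM and were not tested, among them the mesoderm factors Mesp1 and Msgn1 and the endoderm factors Sox17 and Foxa2, which were named after their values were seen. Between EPSCs and ESCs, 4 of the 5 tested genes passed (background 61.0%), 2 higher and 2 lower. Cdx1, a caudal homeobox gene, rose by 1.92 (13.2 ± 3.07 against 2.72 ± 0.0202 FPKM, adjusted p = 4.9e-05), and Pdgfra, a receptor of mesenchymal and endodermal cells, rose by 0.65 (adjusted p = 0.00038). Pdgfra means were 0.423 FPKM in ESCs, 1.24 in EPSCs, 2.31 in hybrid cells, and 3.02 in NSCs. Over the pluripotent groups this is the order of the fibroblast markers given below, and a feeder part was not tested. Snai1, a repressor of epithelial genes, fell by 0.61 (adjusted p = 0.00414), and the homeobox gene Hhex fell by 0.74 (adjusted p = 0.00057). Between hybrid cells and EPSCs, 2 of these 5 were called (background 44.4%), both higher, and the count was 1 without ESC replicate 1 or 2, EPSC replicate 1, or NSC replicate 1 or 2.

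Among feedback genes of the Wnt pathway, which acts upstream of T in the streak, Sp5, Axin2, and Tcf7 were higher in EPSCs than in ESCs. Between EPSCs and ESCs, 4 of 9 tested genes passed (background 61.0%), all higher, and 2 passed without ESC replicate 1. Among the 9, Rnf43, Nkd1, and Lgr5 reached a mean of 1 FPKM only in NSCs. They were low in both groups compared, which limits what this share can show. Sp5, a direct target gene, had 0.596 ± 0.000802 FPKM in ESCs and 3.52 ± 0.199 in EPSCs, and its level in hybrid cells was 8.005 ± 0.847. It rose by 1.50 in EPSCs against ESCs (adjusted p = 1.6e-05) and by a further 0.99 in hybrid cells against EPSCs (adjusted p = 0.000324), where it was the 1 gene of the 9 called (background 44.4%). Axin2, a negative regulator of the pathway, rose by 1.12 between EPSCs and ESCs (adjusted p = 0.000218) and differed by 0.04 between hybrid cells and EPSCs (adjusted p = 0.804). Tcf7, a TCF/LEF factor, rose by 0.36 between EPSCs and ESCs (adjusted p = 0.00739), whereas Notum, a secreted inhibitor, did not pass (-0.38, adjusted p = 0.229).

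The Nodal ligand gene and the inhibitors Lefty1 and Lefty2 were lower in EPSCs than in ESCs. Between EPSCs and ESCs, 8 of 12 Nodal pathway genes passed (background 61.0%), 4 higher and 4 lower. Nodal fell by 0.88, from 70.6 ± 1.16 FPKM in ESCs to 37.9 ± 1.90 in EPSCs (adjusted p = 9.5e-05), and by a further 0.66 to 23.7 ± 2.32 in hybrid cells (adjusted p = 0.00095). Lefty1, an inhibitor of Nodal, fell by 2.26 between ESCs and EPSCs (27.7 ± 0.745 against 5.09 ± 1.43 FPKM, adjusted p = 2.6e-05) and by 1.36 more in hybrid cells (adjusted p = 0.000662). Lefty2 fell by 0.92 between ESCs and EPSCs (44.0 ± 0.231 against 23.7 ± 9.88 FPKM, adjusted p = 0.0371), with a wide spread between the EPSC libraries. The co-receptor gene Tdgf1 differed by 0.18 (adjusted p = 0.219) and Foxh1 by -0.08 (adjusted p = 0.524). Hybrid cells against EPSCs gave 5 lower genes of 12 and none higher (background 44.4%, and 3 called without EPSC replicate 1).

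**Figure D3:**
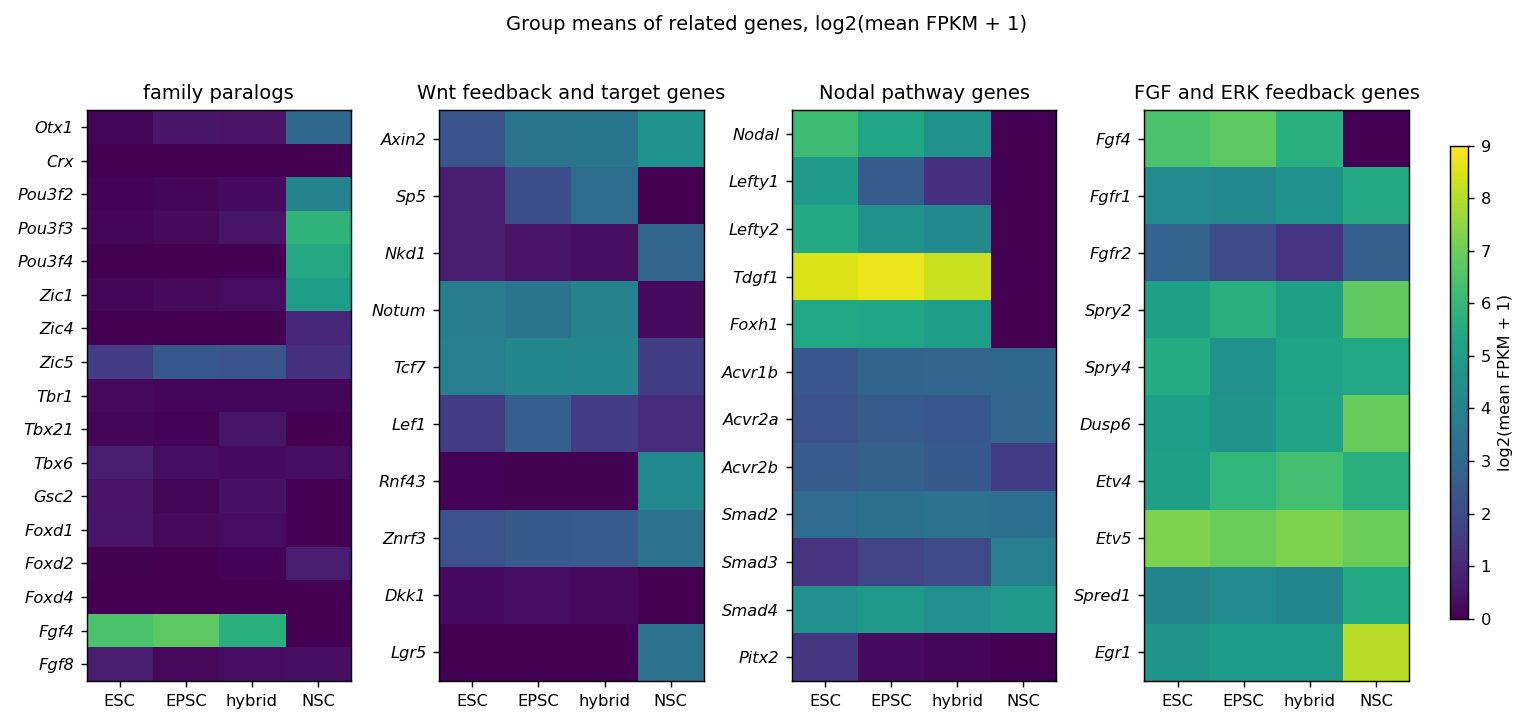
Group means of the family paralogs and of the Wnt, Nodal, and FGF pathway genes (rows) in ESCs, EPSCs, hybrid cells, and NSCs (columns), colored by log2(mean FPKM + 1). Nodal falls from 70.6 FPKM in ESCs to 23.7 in hybrid cells, Sp5 runs the other way from 0.596 to 8.005, and Pou3f3 and Pou3f4 have their signal in NSCs (56.4 and 42.0 FPKM).

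FGF and ERK feedback genes showed no common direction. Between EPSCs and ESCs, 5 of 10 passed (background 61.0%), 3 higher and 2 lower (9 without either hybrid library). Spry2, an inhibitor of receptor signaling, rose by 0.54 (adjusted p = 0.000444), while Spry4 of the same family fell by 0.96 (adjusted p = 0.00837). Dusp6, an ERK phosphatase, differed by -0.36 (adjusted p = 0.113) and Egr1 by 0.25 (adjusted p = 0.0876).

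Of 17 paralogs in the families of the 9 genes, 10 had no group mean of 1 FPKM. Of the 7 tested, Otx1, Pou3f2, Pou3f3, Pou3f4, and Zic1 reached that mean only in NSCs, so the filter itself set them apart there and no count is given against NSCs. Pou3f3 and Pou3f4, neural relatives of Pou3f1, had means of 56.4 ± 0.614 and 42.0 ± 5.49 FPKM in NSCs and at most 0.375 in the other groups. Zic1, a neural relative of Zic2, had a mean of 30.9 ± 0.385 FPKM in NSCs and at most 0.234 in the other groups. Fgf4, the FGF ligand of naive cells, had 86.0 ± 0.0431 in ESCs, 105.5 ± 11.9 in EPSCs, and 52.1 ± 10.7 FPKM in hybrid cells, and it was listed at 0 in NSCs. Zic5, which begins 9726 bases from Zic2, rose by 0.85 between EPSCs and ESCs (4.60 ± 0.574 against 2.10 ± 0.202 FPKM, adjusted p = 0.00222). On the other side of Zic2, Pcca, a mitochondrial carboxylase gene, differed by -0.07 (adjusted p = 0.374).

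The genes whose levels ran most alike over the 8 libraries were found by Pearson's r of log2(FPKM + 1), given as a description because libraries of a group share their cells. For Otx2 they were Parp12 (r = 0.988), Pqlc1 (0.987), and Cog8 (0.983). Pou3f1 ran with Snx21 (r = 0.999), 4933404O12Rik (0.998), and Fam83d (0.997). For Foxd3, they were Oas1a (r = 0.998), Bmp4 (0.997), and Adam23 (0.997). T ran with Sprr2k (r = 0.986), Mul1 (0.980), and the collagen gene Col8a1 (0.979). Those of Eomes were Tex30, Snhg7, and Serping1 (r = 0.996 to 0.997), those of Gsc were Snx9, Chn1, and Lrp12 (r = 0.995 for each), and those of Zic2 were Nedd4 (r = 0.968), Slc4a1ap (0.964), and Zfp780b (0.960). Among the 7 tested genes, the highest r was 0.854 for Eomes with Foxd3, and the lowest was -0.978 for Gsc with Foxd3.

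Markers of fibroblasts, the feeder cells, were lowest of the pluripotent groups in ESCs and highest in hybrid cells. Summed over 10 markers, they had 11.98 and 13.1 FPKM in ESCs, 75.2 and 73.2 in EPSCs, 290.1 and 216.1 in hybrid cells, and 7.44 and 8.90 in NSCs. All 9 tested markers rose in hybrid cells against EPSCs (median 1.61, background 44.4%), and 8 of 9 rose in EPSCs against ESCs (median 2.40, background 61.0%). Among the 9, Pdgfrb reached a mean of 1 FPKM only in hybrid cells (2.81, beside 0.847 in EPSCs and 0.759 in ESCs). The filter itself set it apart there, so its rise in hybrid cells adds no weight to the count. Col1a1, a fibrillar collagen, had means of 1.96 ± 0.148 in ESCs, 14.7 ± 1.44 in EPSCs, and 53.6 ± 10.4 FPKM in hybrid cells, and Col1a2, Twist2, Lum, and Fap were listed at 0 in NSCs. Prrx1, a homeobox gene of mesenchyme, went the other way and made up most of the NSC sum, with 7.03 ± 0.949 FPKM in NSCs beside 6.20 for hybrid cells, 1.94 for EPSCs, and 0.814 for ESCs. The hybrid library with more T (4.66 FPKM) and Foxd3 (11.4 FPKM) also had the higher marker sum, whereas Foxd3 was highest in ESCs, where the sum was low. That hybrid library also had higher sums of core pluripotency genes (1764.6 against 1379.3 FPKM) and of FGF and ERK feedback genes (515.5 against 401.7). Eomes, Gsc, and Pou3f1 were lower in it than in the other hybrid library. The part of feeder RNA in the levels of T, Foxd3, and the other genes was not tested.

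**Figure D4:**
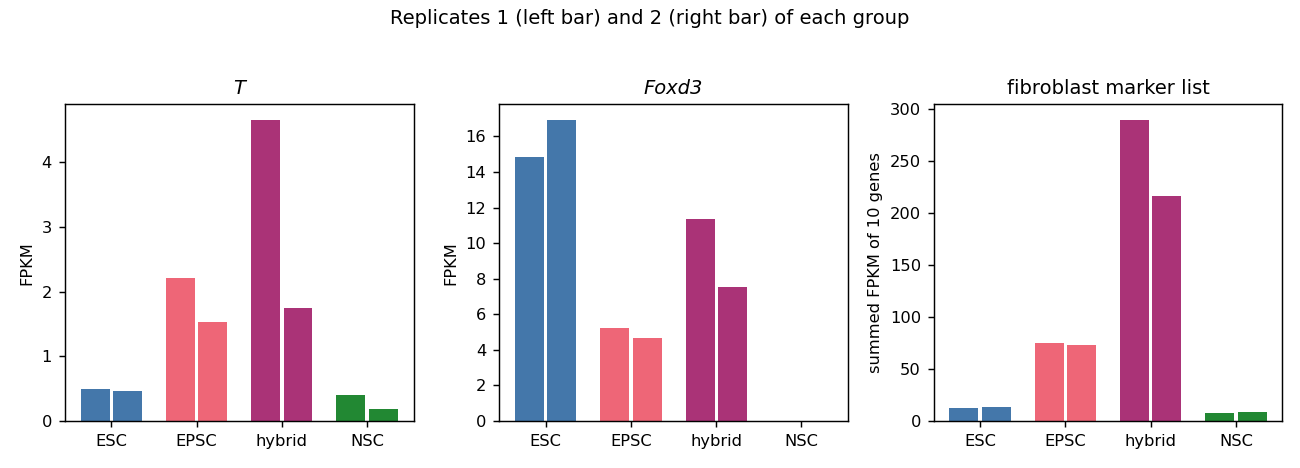
FPKM of T and of Foxd3 and summed FPKM of 10 fibroblast markers (vertical axes, linear from 0) in replicate 1 (left bar) and replicate 2 (right bar) of each group. T and the marker sum are both highest in hybrid replicate 1 (4.66 and 290.1 FPKM), whereas Foxd3 is highest in the ESC libraries (14.9 and 17.0 FPKM).

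Scaling bears on the comparisons with NSCs. FPKM summed to 415239.7 and 415412 in NSC libraries and to between 600674 and 653796 in the other libraries. As deposited, the median of all genes differed by 0.06 between hybrid cells and NSCs, and after scaling each library to a sum of 1000000 it differed by -0.50. Otx2 and Zic2 in hybrid cells against NSCs, and Zic2 in ESCs against NSCs, changed sign under this scaling without passing the test, from 0.25, 0.35, and 0.04 to -0.25, -0.22, and -0.48. Otx2 in EPSCs against NSCs went from -0.14 to -0.69 and came past the threshold (adjusted p = 0.0452). Kept calls that moved by over 1.5 times were Pou3f1 in ESCs against NSCs, from -0.65 to -1.21, and Gsc against NSCs, from -1.10 to -1.80 in hybrid cells, -0.96 to -1.62 in EPSCs, and -1.67 to -2.51 in ESCs. Other kept calls moved by less, among them positive ones that grew, such as Foxd3 (3.36 to 3.95) and Eomes (1.97 to 2.43) in hybrid cells. Quantile normalization moved the negative values of Pou3f1 and Gsc the other way, with -0.38 for Pou3f1 in ESCs against NSCs (adjusted p = 0.00651) and -0.61 for Gsc in EPSCs against NSCs (adjusted p = 0.00133). In hybrid cells against NSCs, it gave 3.42 for Foxd3 and 1.97 for Eomes.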

How the data were processed

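Poly-A RNA of 8 libraries, 2 each of ESCs, NSCs, EPSCs, and hybrid cells, was sequenced by the authors from stranded mRNA libraries. They aligned the reads to mm10 with STAR 2.7.9a and deposited FPKM per gene and library from Cuffnorm of Cufflinks 2.2.1. Gene annotation, strand setting, and library normalization were not given in the sources used here. Samples were grouped by their labels. Depth (21.9 to 32.6 in units of 1000000 fragments) was derived from steps between FPKM values of 2247 genes with an assumed fragment length of 200 nucleotides.

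Groups were compared with limma 3.58.1 in R 4.3.3 (lmFit, contrasts, eBayes with trend, two-sided) on log2(FPKM + 1) with all 8 libraries in 1 fit (4 residual degrees of freedom). The constant of 1 understates changes of low genes. The 13239 genes with a group mean of at least 1 FPKM in at least 1 group were tested, and calls had a Benjamini-Hochberg adjusted p under 0.05 over these genes. Permuting 2 libraries against 2 gives no exact p below 0.333 and was not used. A size rule after the methods of the study (mean of the higher group over 3 FPKM, ratio over 3) was applied without a test. The 9 genes, the gene lists, and the tests were chosen with earlier results of these data known. From each list, the text names up to 4 genes with the highest group mean and the called gene with the largest change in a comparison. Otx1, Pou3f2, Twist2, Lum, Fap, Pdgfrb, Hand1, Elf5, Nkd1, and Lgr5 were named in addition, after their values were seen. For each tested gene, it also names the 3 genes most alike by Pearson's r, and Pou5f1, Nes, and Col1a1 serve as references. Gene symbols were matched to RefSeq (95.05%), which gave positions and promoters in GRCm38.p6. Alternatives covered the constant, filter, scaling, quantile normalization, groups fitted, trend, replicate block, thresholds, and each library left out. Further marker lists (naive and core pluripotency, neural, trophectoderm, primitive endoderm) were computed as checks of the labels. Of the lists, 1 gene is not reported here and was left out of their counts.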

Additional observations from a re-analysis of the deposited data

How the results depend on the processing

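Of 679 alternative values of the fold changes of single genes, 637 kept direction and side of the threshold, 19 were no longer past it, 12 came past it, and 11 changed sign. The number of genes called between hybrid cells and EPSCs was 1, fell to 0 when only these groups were fitted with limma (1 at an unadjusted p under 0.05), and ranged from 1 to 3 when single libraries were left out (2 without EPSC replicate 1 or hybrid replicate 1, 3 without hybrid replicate 2). In EPSCs, 3 genes instead of 6 reached a threshold of 3 FPKM. Signs changed with libraries left out for Otx2 in hybrid cells against EPSCs (-0.04 to 0.83) and in EPSCs against NSCs (-0.58 to 0.29), for Zic2 in hybrid cells against ESCs (-0.03 to 0.66) and in ESCs against NSCs (-0.01 to 0.08), for T in hybrid cells against EPSCs (-0.06 to 0.99), and for Eomes in hybrid cells against ESCs (-0.18 to 0.29). Quantile normalization turned Otx2 in EPSCs against NSCs to 0.20, and scaling to a common sum gave -0.25 for Otx2 and -0.22 for Zic2 in hybrid cells against NSCs and -0.48 for Zic2 in ESCs against NSCs. The cause was not tested. With a lone library in a group, its spread was assumed to be that of the other groups. For genes under 1 FPKM, depth limits what can be said.

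Replicate numbers in the labels are shared between groups, but only 2 pairs exist per comparison, and the deviations of equal numbers correlated at 0.28 for hybrid cells and EPSCs and between -0.112 and 0.0693 elsewhere, so the numbers were not taken as pairs. With a replicate block, 6060 genes instead of 5881 were called between hybrid cells and EPSCs, and the genes called among the 9 numbered 1 there, 7 between EPSCs and ESCs (Eomes added, 0.35, adjusted p = 0.0435), and 5 or 6 elsewhere, as without it. For ESCs against NSCs, crossed numbers, an alternative chosen after seeing the data, gave 11295 calls, beside 11265 with the block and 11212 without.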
